A study of Mus musculus with 8 samples.

Results

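The collagen and laminin genes were examined as a set, because they encode the chains of the fibrils and sheets that surround the somatic and germ cells of a gonad. They were chosen by name alone, as all non-control probes of the array whose gene name in the scanner files is that of a collagen chain or of a laminin alpha, beta or gamma chain. This gave 50 of the 27845 gene names on the array and 100 of its 41174 probes, for 40 collagen and 10 laminin genes (80 and 20 probes). The RNA came from gonads of E14.5 mouse embryos of strain MCH, for which the labels name no allele and no treatment. Whole gonads were pooled in lots of 50, so that germ cells, supporting cells, interstitial cells and vessels contributed to each sample. RNA immunoprecipitation (RIP) with an antibody against DAZL, an RNA-binding protein of germ cells, gave the precipitated RNA (IP), and 5% of the cleared lysate gave the input. There were 2 arrays each for XX input, XX IP, XY input and XY IP, and 50 ng of RNA was labelled for an input and 1 ng for an IP. No array of an IP with a control antibody was used here, so each IP was measured against its input alone. The labels do not say whether the 2 arrays of a group came from separate lots, and p-values therefore measure only the spread between arrays, which may be technical.

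Collagens are trimers of alpha chains that are hydroxylated and glycosylated in the endoplasmic reticulum, trimmed outside the cell and cross-linked. Fibrillar collagens build the cables of interstitial tissue, collagen IV builds the network of basement membranes, and fibril-associated, transmembrane and multiplexin collagens link these structures to each other and to cells. Laminins are trimers of 1 alpha, 1 beta and 1 gamma chain that polymerize into the other sheet of the basement membrane. In the fetal testis a basement membrane forms around each cord, between the supporting cells inside and the interstitial cells outside, whereas the fetal ovary at this stage holds less sharply bounded germ cell nests.

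It was asked of these genes whether the inputs differed between XX and XY gonads, and how their level in the DAZL IP compared with that in the input. Levels are log2 signals after subtracting each array's 75th percentile, so a value of 0 marks a probe as bright as that percentile and each unit is a doubling. A level describes 1 probe across arrays, and levels of different probes are not comparable. Of the 100 probes, 49 had 1 or more groups with both arrays well above background and were tested, for 31 collagen and 7 laminin genes. The probes of Col4a3, Col9a1, Col10a1, Col11a2, Col19a1, Col20a1, Col24a1, Col25a1, Col28a1, Lama3, Lamb3 and Lamc3 did not pass. Where a gene had several tested probes, the one with the highest mean stands for it, and the others are named where they differ. All fits were made over 18265 probes of the array.

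The arrays measured these genes well in the inputs and poorly in the IPs. Across the array, an input had 16744 to 20424 probes well above background and an IP 6084 to 9486, and the 75th percentile signal was 77.4 to 173 scanner units for inputs and 6.83 to 13.1 for IPs. Of the 49 tested matrix probes, 40 (81.6%) were above background on both XX inputs and 47 (95.9%) on both XY inputs, but only 4 (8.16%) on both XX IPs and 6 (12.2%) on both XY IPs. Over all tested probes these shares were 90.0%, 94.0%, 30.6% and 30.2%. The probes of Col1a1, Col1a2 and Col3a1 were the only ones of the 100 above background on all 8 arrays.

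In the input, most matrix transcripts had a lower level in XX than in XY gonads, but few of the differences passed the test. The XX minus XY difference was below 0 for 31 of 38 genes and 41 of 49 probes, with a median over the probes of -0.75 on the log2 scale, beside -0.003 over all probes tested. The matrix median minus that of all probes was -0.75, and it came to -0.40 with normexp background correction, -0.41 with normexp after replacing outlying local backgrounds, -0.28 with no filter on dim probes, -0.43 for the 3 matrix probes above background on all 8 arrays and 0 with a common floor. Among the 30 genes above background on all 4 inputs, 25 (83.3%) had a lower level in XX and 5 a higher one, beside 48.5% lower among all 15398 probes of that kind. At an adjusted p under 0.05 (limma), 8 probes (16.3%) were lower in XX and 2 (4.08%) were higher, where 6.1% and 5.87% of all probes were called. These were 7 genes with a lower and 2 with a higher level, and each of the 9 calls was lost under 1 or more of the other scalings, background corrections or filters. Of these calls, Col5a3, Col9a3, Col15a1 and Col17a1 passed the filter on dim probes through the XY input alone and Col12a1 through the XX input alone. The second probe of Col4a4, counted among the 8 called lower, also passed through the XY input alone. Among the 30 genes measured on all 4 inputs, 3 (10%) were called lower and 1 (3.33%) higher, beside 3.11% and 3.81% of all probes of that kind. The 2 XX arrays lay wholly below the 2 XY arrays for 38 probes and wholly above for 5, beside 38% of all probes in each direction. The XX arrays lay on 1 slide and the XY arrays on another, so sex and slide cannot be told apart in this comparison, and in whole gonads fewer cells of a type and less RNA per cell cannot be told apart either. The count of 8 was 3 to 5 when any 1 of the input arrays was left out and 14 without either XY IP array, where 8.38% of all probes were called lower, and it was 25 in a fit of the 4 input arrays alone, where 21.5% were. The count of 2 was 1 without any 1 of the input arrays and 5 in the fit of the inputs alone, where 22.6% of all probes were called higher.

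**Figure D1:**
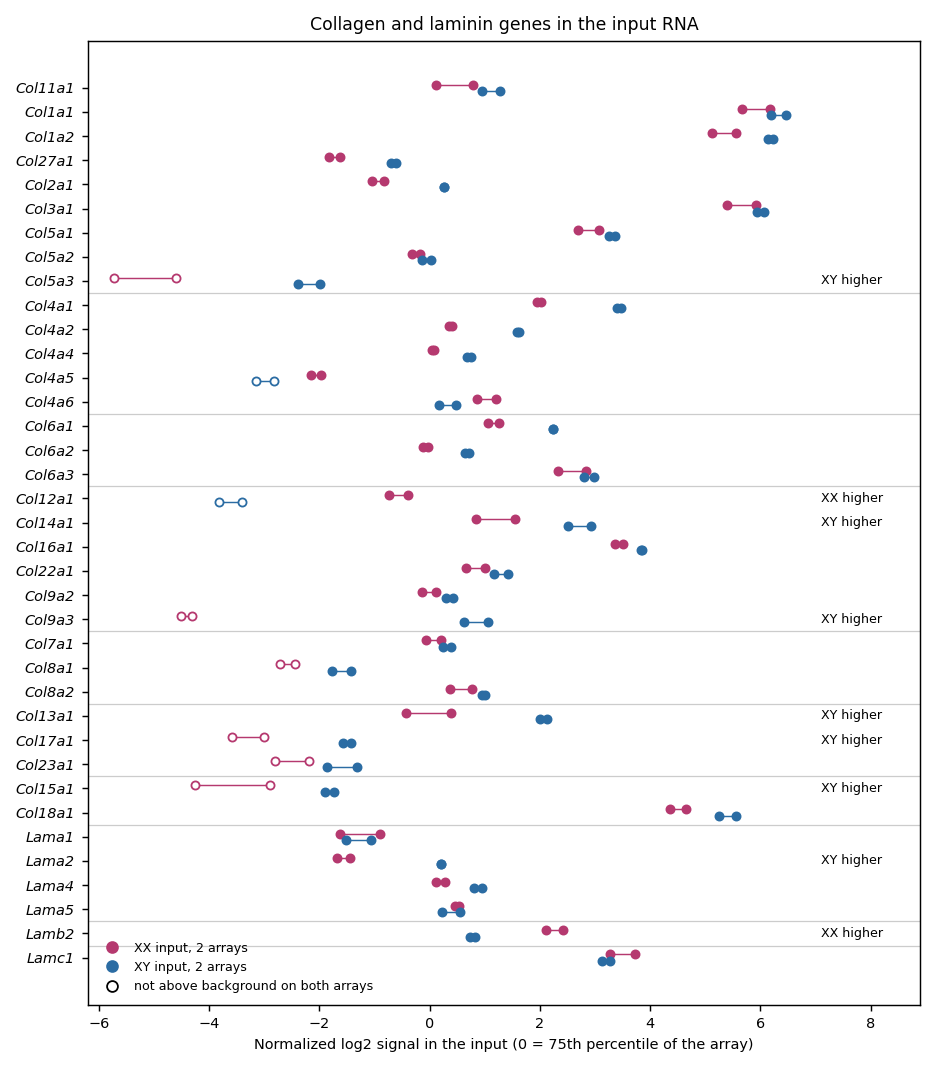
Normalized log2 signal of 37 of the 38 tested collagen and laminin genes on the 2 XX input and 2 XY input arrays, ordered by class with grey lines between classes, each pair of arrays joined by a line. Open circles mark a group not above background on both arrays, and the words on the right mark the 9 genes called at an adjusted p under 0.05, 7 of them higher in XY.

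Fibrillar collagens carry the tensile load of connective tissue, and of the 9 tested genes only Col5a3 was called between the sexes. Col1a1, which encodes the main chain of type I collagen (mm8 chr11:94767851-94767910), was at 5.67 and 6.17 on the XX inputs and at 6.20 and 6.46 on the XY inputs. Its difference was -0.41 (SE 0.52, adjusted p = 0.738). Col1a2, the partner chain (mm8 chr6:4490619-4490678), was at 5.12 and 5.56 in XX and at 6.14 and 6.23 in XY, so that both XX arrays lay lower, with a difference of -0.85 (SE 0.43, adjusted p = 0.276). Col3a1, the chain of type III collagen (mm8 chr1:45293290-45293349), was at 5.39 and 5.92 in XX and 5.93 and 6.07 in XY, a difference of -0.35 (SE 0.51, adjusted p = 0.778). These 3 genes sat far above the 75th percentile in both sexes, and none of them passed the test between the sexes in the fit of all 8 arrays, although Col1a2 did in a fit of the 4 input arrays alone (adjusted p = 0.0218). Their differences turned to 0.56, 0.03 and 0.62 with normexp background correction of the mean signals, so no direction can be given for them. Col5a3, a minor chain of type V collagen (mm8 chr9:20520550-20520609), was not well above background on either XX input. It was at -2.39 and -1.98 on the XY inputs, which puts it at least 1.72-fold higher in XY (adjusted p = 0.00216). The call was lost with scaling to probes detected on all arrays (adjusted p = 0.0567), with normexp (0.115), with normexp after replacing outlying local backgrounds (0.176) and with a common floor, where both sexes sat at the floor. The fitted differences of the remaining genes, Col2a1, Col5a1, Col5a2, Col11a1 and Col27a1, were -1.19, -0.42, -0.19, -0.67 and -1.07, and none was called.

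The collagen IV genes differed among themselves, and none was called through its brightest probe. Col4a1 and Col4a2 encode the chains of the common basement membrane trimer and lie head to head in the genome. Col4a1 (mm8 chr8:11198981-11199040) was at 1.95 and 2.02 on the XX inputs and 3.46 and 3.40 on the XY inputs. Col4a2 (mm8 chr8:11448812-11448871) was at 0.41 and 0.35 in XX and 1.59 and 1.63 in XY. In both genes the 2 XX arrays lay more than 1 log2 unit under the XY arrays and the replicates lay close together. The differences were -1.44 (SE 0.49) and -1.23 (SE 0.43), with adjusted p = 0.085 and 0.0908, so that neither was called in the fit of all 8 arrays. Both were called in a fit of the 4 input arrays alone, with adjusted p = 0.00166 and 0.00249, and when either XY IP array was left out, with adjusted p = 0.021 and 0.0307. The second probe of each gene had a similar difference, -1.18 and -1.23. Col4a5 and Col4a6, chains of other collagen IV trimers, had a higher level in XX, with fitted differences of 0.93 and 0.70, and neither was called. Col4a5 was not above background on either XY input and was at least 1.87-fold higher in XX. A second, dimmer probe of Col4a6 pointed the other way, at -1.21. For Col4a4 the 2 tested probes differed by -0.66 and -2.96, and only the second was called (adjusted p = 6.41e-04). That second probe was above background on 1 of the XX inputs, at -2.51 and -2.001, and on both XY inputs, at 0.77 and 0.63.

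Because Col4a1 and Col4a2 are neighbours and had differences of like size, the promoter windows of this pair are shown, from 250 bases before to 50 after each annotated start (RefSeq, GRCm38.p6, gene strand, 5′ to 3′). Capitals mark matches to the letters CCAAT (the CCAAT box) or GGGCGG (the GC box) on either strand, and no 2 matches overlapped. The windows are chr8:11312777-11313076 on the minus strand and chr8:11312555-11312854 on the plus strand. They share 78 bases on opposite strands, and the annotated starts lie 21 bases apart.
Col4a1: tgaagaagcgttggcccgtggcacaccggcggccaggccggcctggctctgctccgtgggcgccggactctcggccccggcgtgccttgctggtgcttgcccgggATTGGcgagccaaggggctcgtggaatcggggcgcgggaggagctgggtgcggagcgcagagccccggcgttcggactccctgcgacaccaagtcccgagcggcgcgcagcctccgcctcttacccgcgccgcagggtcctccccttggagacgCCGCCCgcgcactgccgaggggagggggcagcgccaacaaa
Col4a2: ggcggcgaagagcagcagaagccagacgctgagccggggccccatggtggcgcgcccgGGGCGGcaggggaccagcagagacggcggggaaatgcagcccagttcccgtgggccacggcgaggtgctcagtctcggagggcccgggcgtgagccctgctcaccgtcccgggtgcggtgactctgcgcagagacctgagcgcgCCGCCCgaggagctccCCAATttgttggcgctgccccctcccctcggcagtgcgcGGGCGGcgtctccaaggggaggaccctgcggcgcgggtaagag
Each window held 1 CCAAT match, and there was 1 GC box match in that of Col4a1 and 3 in that of Col4a2. Of 32851 promoter windows of the same length in the table, 37.4% held CCAAT and 35.7% held GGGCGG. Of the 36 collagen and laminin genes with a window in the table, 12 (33.3%) and 21 (58.3%) did. A gene was counted if any of its windows held the letters, so these are shares of genes beside shares of windows. A match is a run of letters and was not tested for binding.

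The microfibril chains of collagen VI had lower levels in XX without a call. The differences were -1.08 for Col6a1, -0.75 for Col6a2 and -0.32 for Col6a3. The anchoring and network collagens Col7a1, Col8a1 and Col8a2 also had lower levels in XX, with differences of -0.25, -0.98 and -0.39, and none of these was called.

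Fibril-associated collagens, which decorate the surface of fibrils, included calls in both directions. Col9a3, a chain of type IX collagen known from cartilage (mm8 chr2:180545256-180545838), was not above background on either XX input and was at 1.07 and 0.62 on the XY inputs. It was at least 14-fold higher in XY, with a fitted difference of -5.25 (SE 0.54, adjusted p = 6.97e-05). Col12a1, a chain bound to type I fibrils (mm8 chr9:79385147-79385206), was at -0.38 and -0.74 on the XX inputs and not above background on either XY input. It was at least 5.28-fold higher in XX, with a fitted difference of 3.05 (SE 0.46, adjusted p = 9.81e-04). Col14a1, the closest relative of Col12a1 (mm8 chr15:55350660-55350719), was higher in XY instead, at 2.51 and 2.93 beside 0.84 and 1.55 in XX. Its difference was -1.53 (SE 0.46, adjusted p = 0.0487), a 2.89-fold lower level in XX, and the call was lost when any 1 input array was left out (adjusted p from 0.102 to 0.43). The other genes of the group, Col9a2, Col16a1 and Col22a1, differed by -0.37, -0.41 and -0.46, with no call, and a second probe of Col22a1 had the opposite sign at 0.95.

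All 3 transmembrane collagens had lower levels in XX, and 2 were called. Col13a1, a transmembrane collagen of cell contacts (mm8 chr10:61233886-61233945), was above background on all 4 inputs. It was at -0.43 and 0.38 in XX and at 2.001 and 2.13 in XY. Every XY array lay above every XX array, and the difference was -2.09 (SE 0.43, adjusted p = 0.00719), or 4.26-fold. The call was lost without XX input replicate 1, at -1.69 (adjusted p = 0.139), and without XY input replicate 1 or 2 (adjusted p = 0.0536 and 0.0745). Col17a1, the collagen of hemidesmosomes (mm8 chr19:47699715-47699774), was not above background in XX and was at -1.57 and -1.42 in XY, at least 2.76-fold higher (adjusted p = 0.0218). Leaving out any 1 input array raised its adjusted p to between 0.063 and 0.242. Col23a1 differed by -0.89 without a call.

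Multiplexins carry endostatin-type domains and sit in the basement membrane zone. Col18a1 (mm8 chr10:76496791-76496850) was at 4.36 and 4.65 in XX and 5.24 and 5.55 in XY, a difference of -0.89 (SE 0.49, adjusted p = 0.32). Its second probe gave -1.07. Col15a1 (mm8 chr4:47333331-47333390) was not above background in XX and was at -1.90 and -1.73 in XY, at least 2.22-fold higher. Its adjusted p of 0.0494 lay at the threshold and was between 0.166 and 0.514 when XX input replicate 1 or either XY input was left out, and 0.054 without either XX IP array. With the replicate number as a block it was 0.0578, and the call was lost.

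The laminins were divided between the sexes, with 4 genes at a higher level in XX, 3 at a lower one, and a median of 0.03. Lamb2, the beta-2 chain (mm8 chr9:108347961-108348020), was at 2.42 and 2.12 on the XX inputs and 0.74 and 0.83 on the XY inputs. Both XX arrays lay above both XY arrays, with a difference of 1.48 (SE 0.39, adjusted p = 0.0275), or 2.8-fold. Lama2, the alpha-2 chain known from muscle (mm8 chr10:26673839-26673898), went the other way. It was at -1.45 and -1.67 in XX and 0.21 and 0.22 in XY, a difference of -1.77 (SE 0.44, adjusted p = 0.0201), or 3.41-fold. Without 1 of the 4 input arrays the adjusted p was 0.156 to 0.296 for Lamb2 and 0.101 to 0.177 for Lama2, with the same sign each time. Lamc1, the gamma-1 chain shared by most laminins (mm8 chr1:154981243-154981301), was at 3.27 and 3.72 in XX and 3.13 and 3.28 in XY, a difference of 0.29 (SE 0.49, adjusted p = 0.804). Lama1, Lama4 and Lama5 differed by 0.03, -0.69 and 0.12, and none was called.

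Among genes above background on all 4 inputs, the collagens Col13a1 and Col14a1 and the laminin Lama2 were called lower in XX and the laminin Lamb2 higher. The promoter windows of Col13a1, with the largest difference of the 3 called lower, and of Lamb2 are shown in the same way. They are chr10:61979059-61979358 on the minus strand for Col13a1 and chr9:108479612-108479911 on the plus strand for Lamb2 (RefSeq, GRCm38.p6).
Col13a1: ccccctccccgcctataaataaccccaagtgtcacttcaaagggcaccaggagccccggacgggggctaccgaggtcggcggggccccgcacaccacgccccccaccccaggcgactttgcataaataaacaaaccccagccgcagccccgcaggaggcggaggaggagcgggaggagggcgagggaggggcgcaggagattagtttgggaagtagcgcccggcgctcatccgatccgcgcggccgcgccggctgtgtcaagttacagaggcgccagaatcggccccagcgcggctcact
Lamb2: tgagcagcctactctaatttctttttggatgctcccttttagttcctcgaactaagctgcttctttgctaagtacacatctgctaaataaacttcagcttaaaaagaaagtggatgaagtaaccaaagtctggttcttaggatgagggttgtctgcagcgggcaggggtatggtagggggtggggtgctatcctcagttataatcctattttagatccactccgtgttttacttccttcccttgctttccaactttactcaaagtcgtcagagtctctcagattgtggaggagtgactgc
Neither window held the letters CCAAT or GGGCGG on either strand. The share of G and C was 68% in the window of Col13a1 and 44% in that of Lamb2. No window was in the table for Col9a3, Col12a1, Col1a1 or Lamc1.

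Markers of several cell types were also called between the same inputs, beside 6.1% of all probes called lower in XX and 5.87% higher. Lower in XX were 4 of 6 Sertoli, 4 of 4 Leydig and 4 of 7 germ cell genes. So were 2 of 4 smooth muscle and perivascular and 1 of 6 interstitial mesenchyme genes. Higher were 2 of 3 pre-granulosa and 1 of 2 mesonephric epithelium genes. None of 3 macrophage, 4 red cell and 4 endothelial genes was called. Among genes above background on all 4 inputs, 2 of 3 Sertoli, 2 of 2 Leydig and 1 of 2 pre-granulosa genes were called. Marker levels are given as the sum, over the tested genes of a list, of linear signals relative to the 75th percentile. For 6 of 7 Sertoli markers tested the sum was 2.11 to 2.33 in XX and 50.1 to 55.7 in XY, with Dhh and Amh not above background in XX. For 4 of 5 Leydig markers it was 2.43 to 3.49 in XX and 77.3 to 82.3 in XY. For 3 of 6 pre-granulosa markers it was 88.9 to 90.5 in XX and 12.6 to 13.6 in XY, with Fst not above background in XY. Interstitial mesenchyme markers, 6 of 6, summed to 27.8 to 38.0 in XX and 63.2 to 68.9 in XY, and 4 of 4 smooth muscle and perivascular markers to 9.75 to 11.5 and 29.6 to 32.7. Germ cell markers, 7 of 7, summed to 72.6 to 81.6 in XX and 118 to 152 in XY, and Dazl had the opposite sign, at 1.22. The median difference was -3.70 over the 7 genes but -0.37 over the 5 above background on all 4 inputs. Only 2 of the 4 germ cell calls were among these 5. Endothelial markers, 4 of 7 and none called, summed to 11.1 to 13.6 and 10.1 to 12.0. The part of these cell types in the differences of the matrix genes was not tested.

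**Figure D2:**
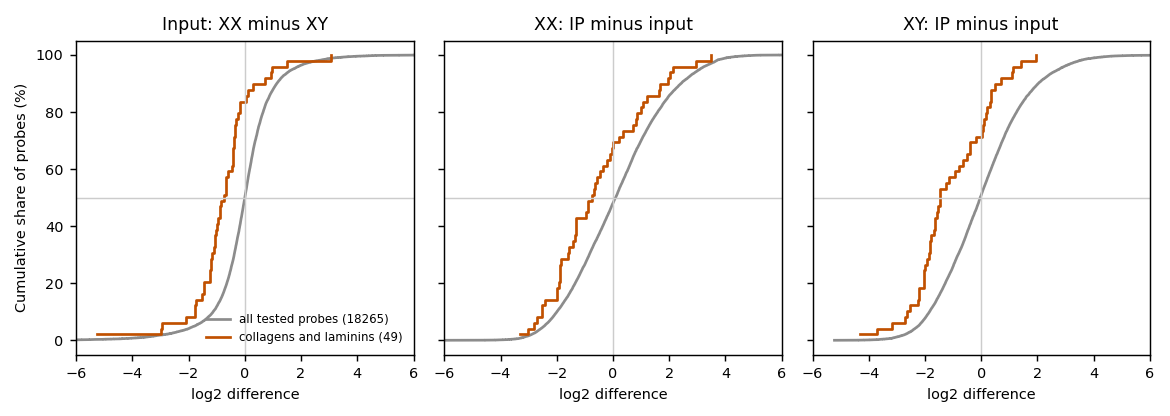
Cumulative share of probes (%) by log2 difference for the 49 tested collagen and laminin probes and for all 18265 tested probes, for the input XX minus XY and for the IP minus input in XX and in XY. The matrix curve lies left of the curve of all probes over most of each panel, with medians of -0.75, -0.76 and -1.46 beside -0.003, 0.09 and -0.03.

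In the DAZL IP, collagen and laminin transcripts were called lower than in the input more often than higher, in both sexes. Calls in the IP needed 4-fold or more besides an adjusted p under 0.05. In XX, 7 of 49 probes (14.3%) were called lower and 4 (8.16%) higher, beside 9.91% and 14.1% of all probes, and the median difference was -0.76 beside 0.09. In XY, 13 probes (26.5%) were called lower and none higher, beside 7.68% and 10.2%, and the median was -1.46 beside -0.03. At an unadjusted p under 0.05 in limma, 32 probes (65.3%) differed in either direction in each sex, beside 55.8% of all probes in XX and 49.8% in XY. The calls were 6 genes lower in XX and 11 in XY, and 5 genes were in both lists, 83.3% of the first and 45.5% of the second. Of the probes called lower, 3 in XX and 6 in XY were above background on neither IP array, and the bounds of 3 and 5 of them were under 4-fold. With both inputs and both IPs above background, 0 of 4 matrix probes in XX and 3 of 6 in XY were called lower. Over all probes of that kind these counts were 398 of 5567 and 319 of 5481. The XX count of 7 was 12 without XX input replicate 1 or XX IP replicate 2, where 9.98% and 13.1% of all probes were called lower. The XX count of 4 was 2 without XX input replicate 1 or XX IP replicate 1, where 13.8% and 15.6% of all probes were called higher. The XY count of 0 was 1 without XY input replicate 1 and 2 without XY IP replicate 2, where 9.56% and 10.9% were called higher. The IP and input of a sex lay on 1 slide, so this comparison does not cross slides. The 2 sexes have separate inputs and IPs, so no array enters both differences. All 8 arrays gave the spread used in both tests, so the 2 lists of calls are not independent.

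Whether a fall can be seen depends on the input level, because the lowest measurable level on the IP arrays was 0.03 to 1.02, against -3.59 to -2.34 on the inputs. Only probes whose input lay at least 4-fold above the mean IP limit could show a 4-fold fall between measured levels. In XX there were 7 such matrix probes, all with a negative difference, with a median of -1.999, and 3 of them (42.9%) were called lower. Over all 3687 probes of that kind 67.0% had a negative difference, the median was -0.96 and 24.0% were called lower. In XY there were 11 such matrix probes, all with a negative difference, with a median of -2.02, and 8 of them (72.7%) were called lower, beside 68.5% with a negative difference, a median of -0.82 and 18.0% called over 4018 probes. Choosing probes by a high input favours a negative difference, and the matrix probes were not matched with the others on input level. None of these matrix probes was called higher, where 10.6% of all such probes were in XX and 8.51% in XY. Over all 49 probes, scaling to the array median gave 0 higher and 34 lower calls in XX and 0 and 35 in XY. Of all probes, 47.3% and 45.9% were then called lower and 1.03% and 1.20% higher. Quantile normalization gave 0 and 20, and 0 and 22, where 18.0% and 13.6% were called lower and 8.10% and 6.79% higher. Scaling to the array median moved the median of all probes to -1.92 in XX and -1.90 in XY and quantile normalization moved it to -0.74 and -0.73, so differences are best read against it. The matrix median minus that of all probes was -0.85 in XX and -1.42 in XY, but -0.03 and -0.13 with normexp, -0.02 and -0.32 with normexp after replacing outlying local backgrounds, -0.29 and -0.95 with no filter on dim probes, and 0 in both with a common floor. It was -2.42 and -2.43 for the 3 matrix probes above background on all 8 arrays.

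**Figure D3:**
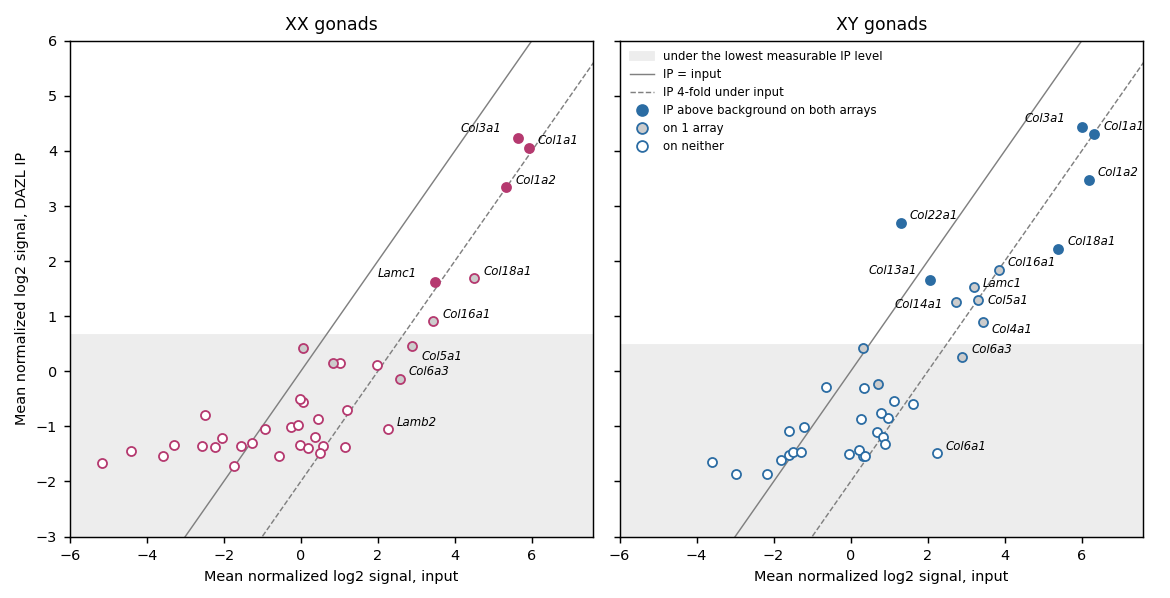
Mean normalized log2 signal of the 38 tested genes in the DAZL IP against the input in XX (left) and XY (right), each the mean of 2 arrays, with lines for equal signal and for a 4-fold lower IP. Filled circles were above background on both IP arrays, grey circles on 1 and open circles on neither, and the shaded range lies under the mean lowest measurable IP level. Only Col22a1 in XY lies above the line of equal signal among filled circles.

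The type I and III collagens were the matrix transcripts best measured in the IP. Col1a1 was at 3.34 and 4.77 on the XX IPs and 3.84 and 4.78 on the XY IPs, under its inputs on every array. For the XX gonads, IP minus input came to -1.86 (SE 0.52, adjusted p = 0.012), and for the XY gonads to -2.02 (SE 0.52, adjusted p = 0.01), or 3.64-fold and 4.05-fold lower. Col1a2 was at 2.88 and 3.80 in XX and 3.28 and 3.68 in XY, with differences of -1.999 (SE 0.43, adjusted p = 0.00301) and -2.71 (SE 0.43, adjusted p = 7.57e-04). Its XX value fell short of the 4-fold limit in the third decimal, so that it was called in XY alone. Col3a1 was at 3.54 and 4.94 in XX and 4.00 and 4.85 in XY, and its differences of -1.41 (SE 0.51, adjusted p = 0.0385) and -1.57 (SE 0.51, adjusted p = 0.0289) passed the test but not the fold limit in either sex. In each of the 3 genes both IPs lay under both inputs in either sex, and the 2 IPs of a sex differed more than its 2 inputs. The call of Col1a1 in XY was lost without XY input replicate 2 (adjusted p = 0.0594) or XY IP replicate 1 (adjusted p = 0.0615). A second, dim probe of Col1a1 gave -0.57 and -1.24 and was at background in both IPs.

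Col5a1, a type V collagen chain that starts fibril assembly (mm8 chr2:27859381-27859440), was called lower in both sexes. It was at 2.70 and 3.08 on the XX inputs and -0.51 and 1.44 on the XX IPs, a difference of -2.42 (SE 0.58, adjusted p = 0.00524). In XY it was at 3.25 and 3.36 on the inputs and 0.84 and 1.73 on the IPs, a difference of -2.02 (SE 0.58, adjusted p = 0.0167). In each sex 1 of the 2 IP arrays was above background. The calls were lost without XX IP replicate 1, at -1.45, and in XY without either input or IP replicate 1 (adjusted p from 0.0521 to 0.0997).

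Among fibril-associated collagens, Col16a1 (mm8 chr4:129601405-129601464) was called lower in both sexes. It was at 3.37 and 3.50 in the XX input and 0.04 and 1.78 in the XX IP, a difference of -2.52 (SE 0.63, adjusted p = 0.00655). In XY it was at 3.86 and 3.83 and 0.96 and 2.73, a difference of -2.001 (SE 0.63, adjusted p = 0.0251), right at the 4-fold limit. In each sex 1 of the 2 IP arrays was above background. Leaving out IP replicate 1 moved it to -1.65 for XX and to -1.12 for XY, and the XY call was also lost without either XY input (adjusted p = 0.0729 and 0.0662). Col9a3 could be compared in XY alone, where it was at 1.07 and 0.62 in the input and at background on both IPs, at least 1.3-fold lower (adjusted p = 0.011). That call was lost without XY input replicate 1 (adjusted p = 0.0737) or XY IP replicate 2, at -1.22 (adjusted p = 0.0564). Col14a1 was at background on both XX IPs, at least 1.45-fold lower, and above background on 1 XY IP, with a fitted difference of -1.47 (SE 0.46), and it was not called in either sex.

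Of the remaining collagens, Col18a1 was called lower in both sexes. Its brighter probe was at 4.36 and 4.65 in the XX input and 1.14 and 2.24 in the XX IP, and at 5.24 and 5.55 and 1.71 and 2.73 in XY. This amounted to -2.82 (SE 0.49, adjusted p = 8.35e-04) for XX and -3.17 (SE 0.49, adjusted p = 6.12e-04) for XY, or 7.04-fold and 9.03-fold lower, with 1 of the 2 XX IP arrays and both XY IP arrays above background. The second probe was at background in both IPs and was at least 3.28-fold and 7.84-fold lower. Every alternative that could be computed for the brighter probe kept the call in both sexes. In collagen VI, 2 of 3 genes were called lower in both sexes. Col6a1 (mm8 chr10:76152870-76152929) was at 1.06 and 1.25 in the XX input and 2.24 and 2.24 in the XY input and at background on all 4 IPs, at least 1.41-fold and 3.4-fold lower (adjusted p = 8.72e-04 and 1.41e-04). Col6a3 (mm8 chr1:92597492-92597551) was at 2.32 and 2.83 and 2.80 and 2.99 in the inputs and at -0.997 and 0.73 and -1.02 and 1.53 in the IPs of XX and XY. The 2 IP arrays lay far apart in each sex, 1 of them above background, and the differences were -2.71 (SE 0.74, adjusted p = 0.0104) and -2.63 (SE 0.74, adjusted p = 0.0149). Without IP replicate 1 they were -1.85 (adjusted p = 0.122) and -1.36 (adjusted p = 0.123). Col6a2 was at background on all IPs and was not called.

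Of 5 tested collagen IV genes, none was called in the XX IP and 2, Col4a1 and Col4a2, were called lower in the XY IP. Col4a5 was at background on all IPs, and Col4a4 was above background on 1 IP array of each sex and had fitted differences of 0.36 in XX and -0.95 in XY. Col4a1 was at 0.49 and -0.27 on the XX IPs, both at background, and at 0.20 and 1.59 on the XY IPs, with 1 array above background. It was at least 2.52-fold lower in XX (adjusted p = 0.00838, fitted difference -1.88, not called at 4-fold) and 5.81-fold lower in XY, at -2.54 (SE 0.49, adjusted p = 0.00223). Col4a2 was at background on all IPs, with fitted differences of -1.58 (SE 0.43, adjusted p = 0.00973) in XX and -2.20 (SE 0.43, adjusted p = 0.0022) in XY, and was called in XY, at least 2.2-fold lower. Without XY IP replicate 1 the XY differences were -1.84 for Col4a1 and -1.76 for Col4a2, under the fold limit. The second probe of Col4a1 was also called in XY (adjusted p = 0.00243). The second probe of Col4a2 was above background on 1 XX input and both XY inputs and at background in all IPs, and it carried a call as higher in the XX IP that has no measured level behind it. With the mean of its 2 probes, Col4a2 in XX was at 0.28.

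Of 7 tested laminin genes, Lamb2 was the only one called in the XX IP. It was at 2.42 and 2.12 in the XX input and at background on both XX IPs, at least 3.06-fold lower (adjusted p = 1.16e-04). In XY it was at least 1.24-fold lower, with a fitted difference of -1.55 (SE 0.39, adjusted p = 0.00888) that was not called. Lamc1 was at 1.33 and 1.92 on the XX IPs and 0.87 and 2.21 on the XY IPs. Its differences of -1.87 (SE 0.49, adjusted p = 0.00795) and -1.66 (SE 0.49, adjusted p = 0.0179) passed the test in both sexes without reaching 4-fold, and 1 of the XY IP arrays was at background. Lama4, the alpha chain of vessel laminins (mm8 chr10:38795404-38795463), was at 0.81 and 0.95 in the XY input and at background in the IP, at least 1.33-fold lower (adjusted p = 0.00178), and a second probe at -1.46 was not called. Lama5 had fitted differences of -1.98 and -1.92 and was at background in both IPs, where no fold can be given.

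**Figure D4:**
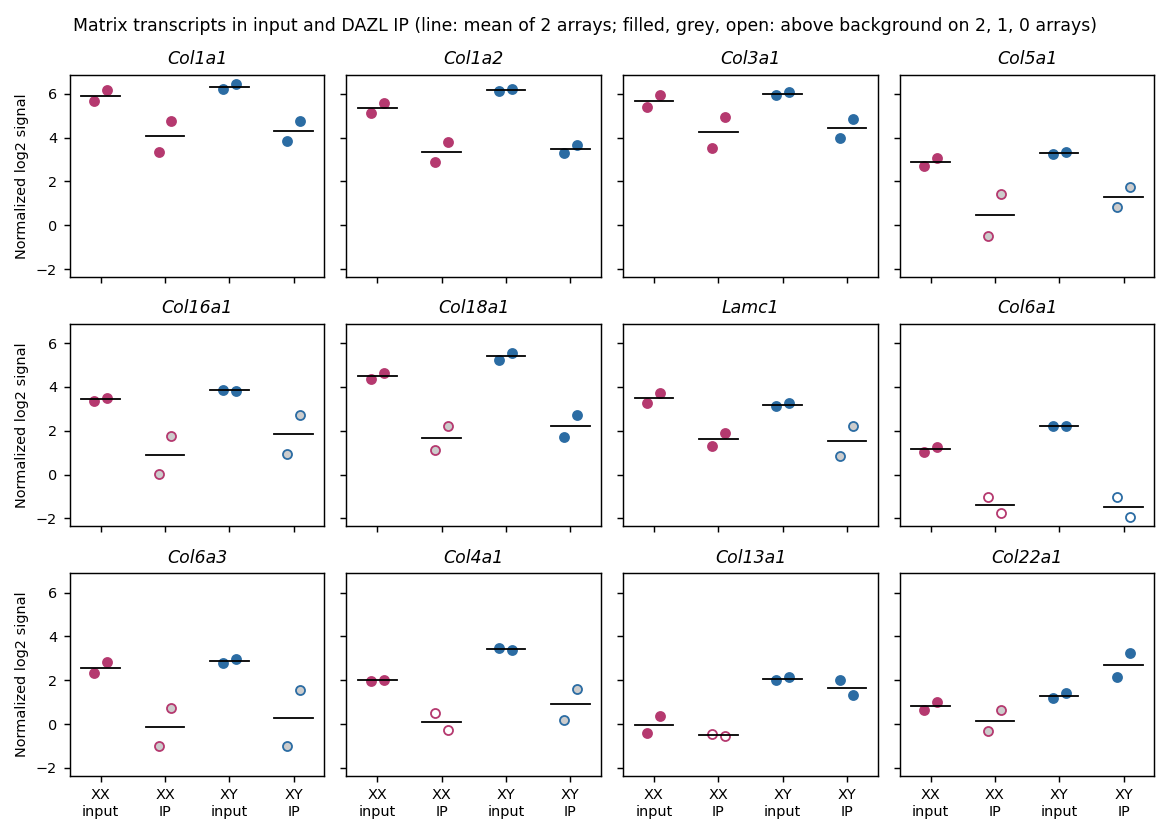
Normalized log2 signal of 12 collagen and laminin genes on each of the 8 arrays, with the mean of each pair as a line. Filled, grey and open circles mark groups above background on 2, 1 and 0 arrays. In 10 of the 12 genes both IP arrays lie under both input arrays in each sex, and Col13a1 and Col22a1 in XY are the exceptions with overlap or with the IP above.

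Col13a1 and Col22a1 differed from this pattern in XY. Col13a1 was at 2.001 and 2.13 in the XY input and at 2.02 and 1.31 in the XY IP, so that input and IP overlapped and the difference was -0.40 (SE 0.43, adjusted p = 0.48). Its XX IPs were at background. Col22a1, a collagen of tissue junctions (mm8 chr15:71627443-71627502), was at 1.17 and 1.41 in the XY input and 2.15 and 3.25 in the XY IP. Both IP arrays lay above both inputs, and the difference of 1.40 (SE 0.48, adjusted p = 0.0362), or 2.65-fold higher, passed the test but not the 4-fold limit. In XX it was at 0.66 and 0.999 in the input and -0.32 and 0.63 in the IP, with -0.67 (SE 0.48, adjusted p = 0.267). The difference between the sexes was -2.07 (SE 0.68, adjusted p = 0.134) and did not pass. The second probe of Col22a1 gave -0.38 in XY and was at background in the IP, so the rise rests on 1 probe.

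The calls as higher in the XX IP had no measured level on either side. They were the probes of Col5a3, Col9a3 and Col15a1, which were at background on the XX inputs and the XX IPs, and the second probe of Col4a2, which was above background on 1 XX input array alone. A value at background on an IP array corresponds to a higher normalized level than one on an input array, and no fold is given for them. Over all tested probes, 8.2% rather than 14.1% were called higher in XX when the IP had to be above background on both arrays, and none of the matrix probes was. With quantile normalization Col5a3 and Col15a1 changed sign, to -0.13 and -0.88.

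The difference between the sexes in IP minus input was called for 4 of 49 probes, 3 higher and 1 lower in XX relative to XY, beside 2.18% and 1.12% of all probes. They were Col9a3 at 5.00 (SE 0.76, adjusted p = 0.00702), Col5a3 at 3.18 (SE 0.72, adjusted p = 0.0345), the second probe of Col4a4 at 2.80 (SE 0.59, adjusted p = 0.027) and Col12a1 at -2.93 (SE 0.65, adjusted p = 0.0335). All 4 were at background on every IP array and each had 1 input, XX or XY, not above background on both arrays, so that the IP levels of all 4 are bounds. Each passed the filter on dim probes through the other input alone. These differences thus follow those of the inputs and do not measure a difference in recovery with DAZL. The count was 1 to 2 without either XX input, without XX IP replicate 1 and without either XY input.

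Genes that act on collagens and laminins were also called lower in the IP in part. All counts of these genes stand beside 9.91% of all probes called lower and 14.1% higher in XX, 7.68% and 10.2% in XY, and 6.1% and 5.87% between the inputs. Of 19 tested genes for collagen synthesis and processing, none was called between the inputs in limma (2 had an unadjusted p under 0.05, beside 23.8% of all probes), 8 were lower and 1 was higher in the IP of XX, and 6 were lower in that of XY. Bmp1, which removes the carboxyl propeptide, was at background on all IPs, at least 3.06-fold lower in XX and 2.93-fold in XY (adjusted p = 2.45e-04 and 2.42e-04), but a second probe of Bmp1 was called higher in XY, at 2.64. Pcolce, which enhances that cleavage, was at -3.24 and -3.60 (adjusted p = 6.34e-04 and 4.95e-04), with 1 XX IP and both XY IPs above background. The third in XX was Adamts2, which removes the amino propeptide, at background on both XX IPs and at least 4.5-fold lower, while 2 other probes of it were not called in XX. The third in XY was the prolyl 3-hydroxylase gene Leprel2, at background on both XY IPs and at least 3.02-fold lower. The gene called higher, Adamts3, was above background on 1 XX input array and on neither XX IP.

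Of 10 basement membrane partners, 7 were lower in the IP of XX and 3 in that of XY. Sparc, a collagen-binding protein above background on all IPs, was at -3.03 in XX and -3.04 in XY. Fbln1 was at background on all IPs, at least 3.13-fold and 4.21-fold lower. The third in XX was Nid2, which links laminin to collagen IV, at background on both XX IPs and at least 1.76-fold lower, and the third in XY was Fbln2, at -2.58. In the input Frem2 was higher in XX by 1.83 (adjusted p = 0.0211) and Fbln2 was lower in XX, at -1.74 (adjusted p = 0.00997). Lamb1, the beta-1 chain, is named Lamb1-1 on the array and so fell under these partners, and it was called lower in the XX IP at -2.45 (SE 0.42, adjusted p = 7.12e-04), with 1 of the IP arrays above background. Of 10 receptors, Itga9 was lower in the XX than in the XY input, at -1.90 (adjusted p = 0.0491), and was lower in both IPs, with Itga11 the only other one, in XX. Of 11 proteases and inhibitors, Adamts5 was lower in the XX input, at -3.43 (SE 0.42, adjusted p = 2.16e-04) with 1 XX array above background, and 4 were lower in the IP of XX and 3 in that of XY. Mmp2 was at background on all IPs, at least 2.87-fold lower in XX and 5.47-fold in XY. On the XX IPs Mmp11 and Adamts1 were at background, at least 5.02-fold and 2.35-fold lower. In XY, with 1 IP array above background each, Mmp11 was at -2.79 and Timp1 at -2.90. These lists were chosen with earlier results of the data known and are given as counts.

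Of 7 germ cell markers, 4 were called higher in the IP of XX and 3 in that of XY, and none was called lower, beside 14.1% and 10.2% of all probes called higher. For 1 of the 4 in XX, Nanos3, both the input and the IP were at background. The summed linear signal of 7 of 7 germ cell markers was 72.6 to 81.6 in the XX input and 393 to 428 in the XX IP, and 118 to 152 in the XY input and 573 to 889 in the XY IP. Dazl was called higher in both IPs, at 2.69 and 2.06. Interstitial mesenchyme markers went from 27.8 to 38.0 in the XX input to 8.66 to 14.48 in the XX IP, and from 63.2 to 68.9 in the XY input to 22.0 to 46.7 in the XY IP. Endothelial markers went from 11.1 to 13.6 to 2.02 to 2.36 in XX and from 10.1 to 12.0 to 2.49 to 5.79 in XY, and none of the 4 was above background on both IP arrays of a sex. Pre-granulosa markers went from 88.9 to 90.5 to 12.2 to 19.6 in XX and from 12.6 to 13.6 to 5.65 to 9.64 in XY, and smooth muscle and perivascular markers from 9.75 to 11.5 to 2.75 to 2.85 and from 29.6 to 32.7 to 6.999 to 9.04. Sertoli markers were at 2.11 to 2.33 in the XX input and 2.92 to 3.19 in the XX IP, where none was above background on both arrays, and at 50.1 to 55.7 and 7.41 to 11.9 in XY. Leydig markers were at 2.43 to 3.49 and 1.68 to 2.496 in XX and at 77.3 to 82.3 and 10.4 to 17.0 in XY. Macrophage markers were at 0.688 to 0.768 and 0.77 to 1.31 in XX and at 0.787 to 1.06 and 0.666 to 1.23 in XY. Mesonephric epithelium markers were at 0.396 to 0.556 and 0.669 to 0.9 in XX and at 0.244 to 0.335 and 0.722 to 0.812 in XY. No marker of these 2 lists was above background on both IP arrays of a sex, and no Leydig or smooth muscle and perivascular marker was in XX. Red cell markers went from 38.6 to 44.7 to 7.58 to 16.6 in XX and from 43.9 to 53.8 to 10.9 to 34.4 in XY. The part of cell type in the lower IP levels of the matrix genes was not tested.

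Probes of the same gene did not always give the same result. Of 11 genes with several tested probes, the sign differed between probes in 2 genes for the input, in 3 genes for IP minus input of XX and in 5 genes for that of XY. The call differed in 1, 1 and 3 genes. The positions given are those of the probes in the files on mm8, and exons and untranslated regions were not looked up because no annotation of that build was used here.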

How the data were processed

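RNA of XX and XY gonads, input and DAZL IP, was measured on 8 Agilent 1-colour arrays. The deposited signal intensity of each spot was already background-subtracted, with a surrogate for dim spots and no scaling between arrays. Feature Extraction 9.5.3.1 did this, as the headers state. The authors' table holds log2 values, for which the methods give a floor of 1 and division by the 75th percentile, and it served as an alternative. Mean and background intensities, also deposited, served for normexp (offset 50).

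Outlier spots were dropped, signals under 1 were set to 1, log2 values of spots of a probe were averaged, and the array's 75th percentile over non-control probes was subtracted. Of 41101 usable probes, 18265 with 1 or more groups above background on each array were tested. No probe was saturated. The number of arrays limits precision.

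limma 3.58.1 in R 4.3.3 was fitted to the 8 arrays, with a mean for each of the 4 groups and empirical Bayes, two-sided, with Benjamini-Hochberg adjustment over all tested probes. Calls were at an adjusted p under 0.05 and, for IP minus input, at least 4-fold. The study's limit was also 4-fold, with a p under 0.05 for which no test or adjustment was named. Where 1 side was not above background, "at least" gives a bound against the lowest signal above background, or the probe's own if higher. The fit was tested on simulated data with 200 probes changed 8-fold in each comparison. It found 148 for the inputs, 141 for the XX IP, 147 for the XY IP and 62 for the difference between the sexes.

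The genes, lists and markers were chosen with earlier results of these data known. Named were the called genes above background on the higher side (at most 10 per comparison and direction), Col4a1, Col4a2, Lamc1, Col1a1, Col1a2 and Col3a1, and at most 3 called genes per other list and direction. Of 100 probes, 72 matched the reference by accession, all with the same symbol, and the others were named by symbol. Positions are from the files (mm8). Promoter sequences are from RefSeq (GRCm38.p6). Other scalings, backgrounds, filters and left-out arrays were tried as alternatives. The values of 1 tested gene are not reported here.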

Additional observations from a re-analysis of the deposited data

Results flagged for a closer look

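The difference between the sexes in IP minus input passed an adjusted p under 0.05 in limma for 4 probes. It was 5.00 for Col9a3 (adjusted p = 0.00702), 3.18 for Col5a3 (adjusted p = 0.0345), 2.80 for the second probe of Col4a4 (adjusted p = 0.027) and -2.93 for Col12a1 (adjusted p = 0.0335). The IP of both sexes was at background on every array for these probes, and their inputs differed between the sexes, by -5.25, -2.97, -2.96 and 3.05. The 4 differences in IP minus input thus follow those of the inputs and do not measure a difference in recovery with DAZL. Sex and slide cannot be told apart for these values.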

How the results depend on the processing

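The counts depended on the scaling and on how dim signal was treated, and the cause was not tested. Between the inputs, where 2 probes were called higher and 8 lower in XX, these were 1 and 6 with scaling to the array median, 1 and 4 with scaling to probes detected on all arrays, 1 and 3 with quantile normalization, 1 and 2 with normexp, 3 and 14 with normexp after replacing outlying local backgrounds, 1 and 5 with a common floor, 1 and 3 with no filter on dim probes, 0 and 0 among the 3 matrix probes above background on all 8 arrays, and 5 and 25 in the fit of the input arrays alone. For the XX IP, with 4 higher and 7 lower, they were in the same order of settings 0 and 34, 1 and 16, 0 and 20, 0 and 7, 0 and 7, 0 and 1, 53 and 7, and 0 and 0. For the XY IP, with 0 higher and 13 lower, they were 0 and 35, 0 and 17, 0 and 22, 0 and 6, 0 and 10, 0 and 4, 46 and 13, and 0 and 2. For the difference between the sexes, with 4 called, they were 0, 1, 5, 0, 1, 5, 1 and 0, beside 0.148%, 3.18%, 4.999%, 0%, 1.24%, 6.07%, 0.18% and 2.92% of all probes. Over all probes, the shares called lower were in that order 47.3%, 15.7%, 18.0%, 11.4%, 11.4%, 3.49%, 4.41% and 8.87% for the XX IP and 45.9%, 12.0%, 13.6%, 4.39%, 10.9%, 2.49%, 3.43% and 5.49% for the XY IP. With no filter on dim probes, 56.8% and 54.4% of all probes were called higher, beside 53 and 46 of the 100 matrix probes. For the inputs the shares of all probes called lower were 2.98%, 5.15%, 3.74%, 1.06%, 7.11%, 2.56%, 1.53%, 1.71% and 21.5%. The shares called higher were 2.79%, 5.11%, 4.34%, 2.21%, 7.86%, 3.02%, 1.34%, 3.07% and 22.6% for the inputs. For the XX IP they were 1.03%, 9.16%, 8.10%, 0.378%, 0.361%, 5.81%, 56.8% and 24.7%. For the XY IP they were 1.20%, 6.88%, 6.79%, 0.115%, 0.367%, 3.93%, 54.4% and 20.0%. Leaving out each array in turn gave 1 to 2 higher and 3 to 14 lower for the inputs, 2 to 4 and 7 to 12 for the XX IP, 0 to 2 and 10 to 13 for the XY IP, and 1 to 6 for the difference. Of all probes, these called 2.71% to 8.91% higher and 3.24% to 8.38% lower for the inputs, 13.8% to 15.6% and 8.02% to 13.1% for the XX IP, 9.56% to 11.4% and 5.77% to 12.1% for the XY IP, and 0.881% to 8.53% for the difference. A lone array was then assumed to vary like the other groups. The authors' table of processed values gave 2 and 8, 4 and 7, 0 and 12, and 4.

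The sign turned in 6 cases. With normexp the input differences of Col1a1, Col1a2 and Col3a1 became 0.56, 0.027 and 0.62. With quantile normalization the XX IP differences of Col5a3 and Col15a1 became -0.13 and -0.88, and with the mean of its probes that of Col4a2 became 0.28. Of the other values of single genes under the alternatives, 632 kept their sign and call, 160 lost the call and 48 gained it.

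The labels give the groups the same replicate numbers, without stating that a number marks a shared lot. Deviations of same-numbered arrays correlated at 0.52 between the inputs, 0.538 between the IPs, 0.0307 between XX input and XX IP and 0.138 between XY input and XY IP. With the replicate number as a block the counts were 2 higher and 9 lower for the inputs, 4 and 7 for XX, 0 and 13 for XY and 4 for the difference, where 7.34% and 7.58% of all probes were called for the inputs, 14.1% and 9.91% for XX, 10.2% and 7.69% for XY and 4.99% for the difference. Signal over background limits the IP, since 39 of 49 tested matrix probes were above background on neither XX IP array and 35 on neither XY IP array.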
